A study of Mus musculus with 18 samples.

Results

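Xcr1, Clec9a, Batf3, Flt3, Itgae, Wdfy4, Cadm1, Naaa and Xcl1 are described here, 9 mouse genes of the 37620 gene IDs in the deposited count files. They were chosen by name as genes of the XCR1+ conventional dendritic cell (cDC1) and its chemokine. Their IDs are: Xcr1 (ENSMUSG00000060509), Clec9a (ENSMUSG00000046080), Batf3 (ENSMUSG00000026630), Flt3 (ENSMUSG00000042817), Itgae (ENSMUSG00000005947), Wdfy4 (ENSMUSG00000051506), Cadm1 (ENSMUSG00000032076), Naaa (ENSMUSG00000029413) and the ligand Xcl1 (ENSMUSG00000026573). All 9 were found by symbol, and all 9 passed the filter on low counts. RNA was sequenced from whole tumours of MO4, a B16F10 melanoma line carrying ovalbumin, that had been implanted on day 0 in both hindlimbs of C57BL/6 mice at 100000 cells per side. The groups, with 3 libraries each, were right IFN-alpha-pMC, right pMC, right control, left IFN-alpha-pMC, left pMC and left control. Right IFN-alpha-pMC tumours had IFN-α-iPSC-pMCs, and right pMC tumours had iPSC-pMCs, placed around them on days 5, 6 and 7 (1000000 cells each time). The left tumours of those groups were the distant tumours of mice treated on the right, and control tumours received no cells. RNA was taken on day 11 in every group. The labels name no genotype other than C57BL/6, no age and no vehicle for the controls. They do not say how the cells carried IFN-α, whether the 3 samples of a group were separate animals, or whether tumours were pooled. The p-values therefore reflect only how far these samples spread, and that spread may be technical.

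The cDC1 is a dendritic cell subset that takes up dead tumour cells and cross-presents their antigens to CD8 T cells. It carries the chemokine receptor XCR1, whose ligand XCL1 is secreted mainly by NK cells and activated CD8 T cells, and the dead-cell receptor CLEC9A. Its development depends on the transcription factors IRF8 and BATF3 and on the growth factor receptor FLT3, and WDFY4 is needed for cross-presentation. CD103 (Itgae), CADM1 and NAAA are further markers of the subset, but each is also made by other cell types.

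The promoters of the 4 members on which the results below turn most are shown, so that their control regions can be read beside the expression values. They come from RefSeq on build GRCm38.p6, run 5′ to 3′ on the gene's strand, and span 250 bases before the annotated start to 50 after it. The Xcr1 promoter is chr9:123861980-123862279 (minus strand), Clec9a is chr6:129408612-129408911 (plus strand), Naaa is chr5:92278132-92278431 (minus strand) and Batf3 is chr1:191098164-191098463 (plus strand). Capitals mark the single motif match.
Xcr1: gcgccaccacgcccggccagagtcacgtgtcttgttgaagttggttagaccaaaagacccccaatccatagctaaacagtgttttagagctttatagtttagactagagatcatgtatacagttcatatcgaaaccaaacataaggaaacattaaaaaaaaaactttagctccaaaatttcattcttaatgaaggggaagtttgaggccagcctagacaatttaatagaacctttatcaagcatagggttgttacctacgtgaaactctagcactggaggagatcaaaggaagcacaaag
Clec9a: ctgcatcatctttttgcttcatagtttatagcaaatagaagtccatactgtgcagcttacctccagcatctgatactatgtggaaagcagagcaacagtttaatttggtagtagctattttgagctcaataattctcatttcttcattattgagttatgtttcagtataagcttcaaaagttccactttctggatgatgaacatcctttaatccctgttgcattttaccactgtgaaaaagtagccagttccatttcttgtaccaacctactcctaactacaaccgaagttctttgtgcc
Naaa: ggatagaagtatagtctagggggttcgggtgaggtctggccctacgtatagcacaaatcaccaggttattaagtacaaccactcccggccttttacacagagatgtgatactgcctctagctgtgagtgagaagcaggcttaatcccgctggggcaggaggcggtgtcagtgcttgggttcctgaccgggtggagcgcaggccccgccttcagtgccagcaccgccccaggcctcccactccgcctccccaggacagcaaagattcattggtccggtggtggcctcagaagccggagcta
Batf3: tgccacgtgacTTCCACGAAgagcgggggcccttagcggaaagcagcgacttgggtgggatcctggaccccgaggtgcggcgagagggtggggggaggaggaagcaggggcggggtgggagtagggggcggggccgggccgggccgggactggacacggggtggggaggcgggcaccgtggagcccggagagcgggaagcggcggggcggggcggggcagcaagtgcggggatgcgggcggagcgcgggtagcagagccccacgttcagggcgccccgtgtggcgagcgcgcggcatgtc
The 6 motifs were searched on both strands in the 7 members with a promoter sequence (Xcr1, Clec9a, Naaa, Batf3, Flt3, Wdfy4 and Xcl1). The interferon-stimulated response element core (GAAA, any 2 bases, GAAA), found in 3.44% of 32851 mouse promoters of this length, the AP-1 motif TGANTCA (7.81%), the CRE motif TGACNTCA (8.83%), the ETS-IRF composite (GGAA, any 2 bases, GAAA; 2.72%) and the PU.1 motif GAGGAAGT (3.20%) had no match in these windows. The interferon-gamma activated site TTCNNNGAA, found in 8.30% of promoters, matched once, as TTCCACGAA in Batf3, 239 bases before the start. A match here describes the letters only. CRE and AP-1 matches can share bases with one another, as can the interferon element and the ETS-IRF composite.

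Library totals ran between 14.35 and 23.43 assigned counts in units of 1000000 (median 18.85), at which 3 counts correspond to 0.128 to 0.209 CPM (counts per 1000000 of the TMM-scaled library). The 7 melanocyte genes, among them Tyr, Pmel and Dct, summed to between 28746 and 43611 CPM in every library, so the labelled tumour was present throughout. Across genes, expression shifted with exon length by library, with a Spearman correlation between centred log2 CPM and exon length that was most negative in right control 3 (-0.45) and left IFN-alpha-pMC 1 (-0.42) and most positive in right control 2 (0.50). In this trend right IFN-alpha-pMC 3 (0.32), left IFN-alpha-pMC 1 and right control 3 stood apart from the other libraries of their own groups. Summed skeletal muscle markers were 1753 to 3632 CPM in right IFN-alpha-pMC libraries, against 40.1 to 974 CPM in right control libraries, and 630 to 1168 CPM in left IFN-alpha-pMC libraries, against 18.6 to 320 CPM in left control libraries. Read pairs in no feature were 4.04 to 5.96% of the total with IFN-alpha-pMC on the right and 4.15 to 6.12% on the left, and 6.87 to 12.2% across the other 4 groups. The part of these differences in the results below was not tested beyond the settings named with them. In bulk tumour RNA, fewer cells of a type and less RNA per cell cannot be told apart.

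Set per kilobase of exon, so that genes can be compared, the 18-library mean levels were 40.9 CPM per kb for Cadm1, 10.9 for Xcl1, 8.22 for Naaa, 1.35 for Batf3, 0.767 for Xcr1, 0.669 for Wdfy4, 0.644 for Clec9a, 0.270 for Itgae and 0.174 for Flt3. The receptor, the dead-cell lectin and WDFY4 thus lay close together on this scale, while Cadm1 and Naaa lay above them. Counts behind single values were small for Flt3 (8 to 49 per library), Clec9a (13 to 80), Itgae (13 to 38), Batf3 (15 to 84) and Xcr1 (26 to 137), so a single library can move their group means. With the 6 groups ordered by mean CPM, the libraries of neighbouring groups overlapped in every member except Batf3, between left IFN-alpha-pMC (3.06 CPM) and right pMC (1.81 CPM), and Naaa, between right IFN-alpha-pMC (54.1 CPM) and left IFN-alpha-pMC (34.4 CPM). Here and below, the share of all genes whose libraries part in this way is not given, so such separations are description only.

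Xcr1, the XCL1 receptor, was higher in distant tumours of IFN-alpha-pMC mice than in distant tumours of both other groups. In left IFN-alpha-pMC libraries it read 4.13, 5.31 and 5.87 CPM, against 1.76, 1.82 and 2.22 CPM in left pMC and 1.47, 2.42 and 2.79 CPM in left control libraries. All 3 left IFN-alpha-pMC libraries lay above all 6 other left libraries. The log2 fold change was 1.40 ± 0.34 (SE, n = 3 per group) against left pMC (edgeR quasi-likelihood test, adjusted p = 0.0342) and 1.2 ± 0.34 against left control (edgeR adjusted p = 0.046). Beside the injected cells, Xcr1 read 5.86, 3.95 and 5.41 CPM in right IFN-alpha-pMC libraries, against 2.38, 3.5 and 3.32 CPM in right pMC and 1.55, 3.14 and 4.56 CPM in right control libraries. The right IFN-alpha-pMC libraries lay above the right pMC ones, whereas right control 3 lay above right IFN-alpha-pMC 2. Neither right comparison passed the test, with log2 fold changes of 0.73 ± 0.33 against right pMC (edgeR adjusted p = 0.213) and 0.73 ± 0.33 against right control (edgeR adjusted p = 0.177).

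Clec9a, the receptor for actin exposed on dead cells, followed Xcr1 closely. It read 3.58, 3.35 and 3.16 CPM in right IFN-alpha-pMC libraries, against 0.885, 1.97 and 1.34 CPM in right pMC and 1.1, 2.01 and 2.88 CPM in right control libraries. In left IFN-alpha-pMC libraries it read 2.76, 3.29 and 3.64 CPM, against 1.68, 1.26 and 1.57 CPM in left pMC and 0.734, 1.14 and 1.84 CPM in left control libraries. On each side the 3 IFN-alpha-pMC libraries lay above the 6 others. Clec9a passed the edgeR test against right pMC (log2 fold change 1.26 ± 0.36, adjusted p = 0.0343) and against left control (1.38 ± 0.37, adjusted p = 0.0427). It did not pass against left pMC (1.1 ± 0.36, edgeR adjusted p = 0.076) or right control (0.77 ± 0.35, edgeR adjusted p = 0.193). Within groups the library with the highest Xcr1 also had the highest Clec9a in 5 of the 6 groups, and the library with the lowest Xcr1 the lowest Clec9a in 4 of the 6. Naaa shared the lowest library with Xcr1 in 4 of 6 groups too, and Flt3 and Xcl1 in 3 of 6. Each of these 3 genes shared the highest library in 2 of 6. The share of all genes that match Xcr1 in this way is not given, so these counts are description only.

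These calls were close to the threshold. Against left control, Xcr1 lost its call when any 1 of the 6 libraries was left out (edgeR adjusted p between 0.0678 and 0.16), as did Clec9a (0.0663 to 0.151). Against left pMC, Xcr1 lost its call without each library except left IFN-alpha-pMC 1 (0.0733 to 0.141), and the Clec9a call against right pMC was lost without right pMC 1 (0.155), right pMC 3 (0.103) or any 1 right IFN-alpha-pMC library (0.0506 to 0.0892). With a muscle score (the mean log2 CPM of the 10 skeletal muscle markers) as a covariate in edgeR, none of these 4 calls held, although the fold changes were larger (1.60 ± 0.46 for Xcr1 against left control): adjusted p was 0.121 for Xcr1 against left pMC, 0.139 for Xcr1 and 0.131 for Clec9a against left control, and 0.0644 for Clec9a against right pMC. Under that setting 0.37%, 0.647% and 4.65% of all genes were called against left pMC, left control and right pMC. The score was 6.83 to 7.98 in right IFN-alpha-pMC libraries and at most 5.96 in the other right libraries. On the left it was 5.52 to 6.32, against at most 4.30. The covariate and the treatment thus cannot be told apart, and SEs grew (Xcr1 against left pMC from 0.34 to 0.46). The fold changes against right control depended on which right control library was left out. Without right control 3, Xcr1 (1.11, edgeR adjusted p = 0.0223) and Clec9a (1.11, 0.0392) were called. Without right control 1 the log2 fold change was 0.33 for Xcr1 (edgeR adjusted p = 0.61) and 0.39 for Clec9a (0.612).

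**Figure D1:**
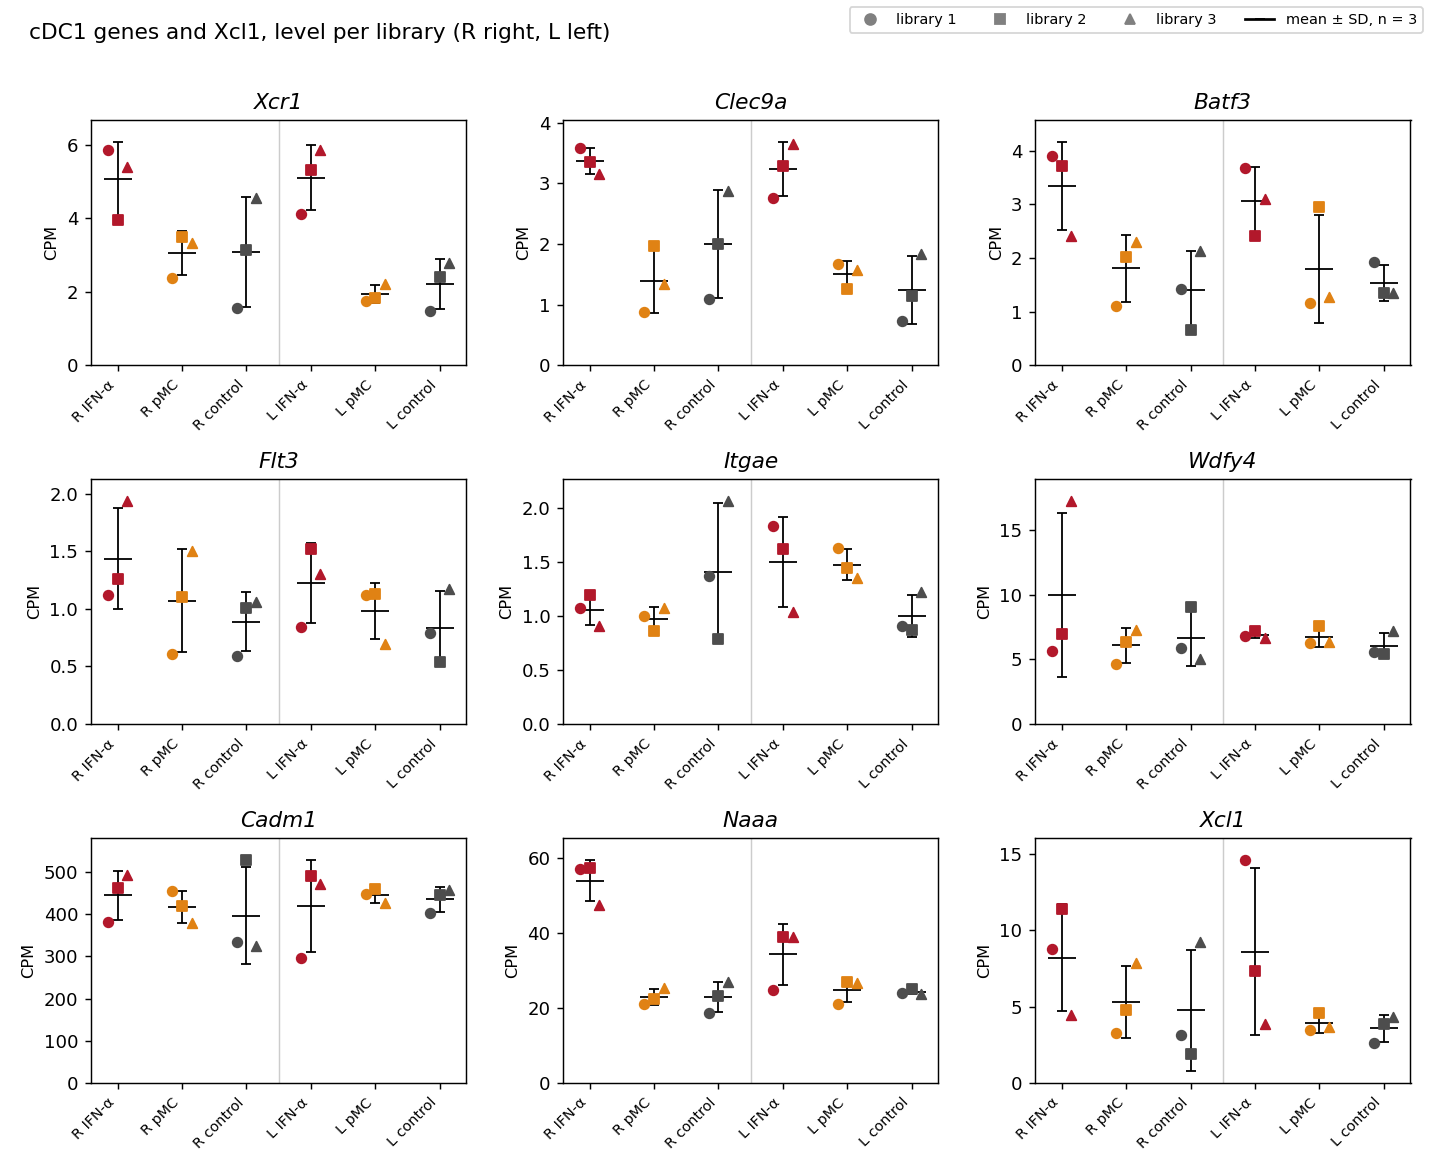
Level of each of the 9 genes in every library, in CPM on a linear axis that starts at 0, by group (R right, L left). Points are libraries, with the mean and SD over 3 libraries. Naaa separates right IFN-alpha-pMC (47.7 to 57.5 CPM) from every other library, Clec9a separates the IFN-alpha-pMC libraries of each side from the others of that side, and Xcl1 spreads widely within right control and left IFN-alpha-pMC.

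Batf3, the transcription factor that cDC1 need to develop, read 3.91, 3.71 and 2.41 CPM in right IFN-alpha-pMC libraries, against 1.11, 2.01 and 2.3 CPM in right pMC and 1.42, 0.654 and 2.13 CPM in right control libraries. On this side the IFN-alpha-pMC libraries did not overlap either other group. The log2 fold changes were 0.88 ± 0.42 against right pMC (edgeR adjusted p = 0.247) and 1.27 ± 0.42 against right control (edgeR adjusted p = 0.067), so neither was called. In left libraries Batf3 read 3.67, 2.41 and 3.1 CPM with IFN-alpha-pMC, against 1.16, 2.95 and 1.26 CPM with pMC and 1.92, 1.34 and 1.34 CPM in controls. Left pMC 2 lay among the IFN-alpha-pMC values. The differences were 0.79 ± 0.42 against left pMC (edgeR adjusted p = 0.212) and 0.98 ± 0.43 against left control (edgeR adjusted p = 0.115). Against right control, Batf3 passed in edgeR without right control 3 (1.68, adjusted p = 0.0146) or without right IFN-alpha-pMC 3 (1.39, 0.0407), and in DESeq2 with all 18 libraries (1.24, 0.0348). With the muscle score as a covariate in edgeR, the Batf3 fold changes were smaller in all 4 comparisons, at 0.67 ± 0.49 against right control, 0.18 ± 0.51 against right pMC, 0.27 ± 0.53 against left control and 0.07 ± 0.53 against left pMC. In that score the IFN-alpha-pMC libraries did not overlap the others of their side, so it cannot be told apart from treatment.

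Flt3, the receptor for the dendritic cell growth factor FLT3L, was the least abundant member. It read 1.12, 1.26 and 1.94 CPM in right IFN-alpha-pMC libraries, against 0.608, 1.1 and 1.5 CPM in right pMC and 0.594, 1.0 and 1.06 CPM in right control libraries. In left libraries it read 0.842, 1.52 and 1.3 CPM with IFN-alpha-pMC, against 1.12, 1.13 and 0.697 CPM with pMC and 0.79, 0.537 and 1.17 CPM in controls. The right IFN-alpha-pMC libraries lay just above right control, and all other pairs of groups overlapped. No comparison called Flt3: the 4 IFN-alpha-pMC fold changes lay between 0.34 ± 0.39 and 0.71 ± 0.39 on the log2 scale (lowest edgeR adjusted p 0.289). The ligand gene Flt3l was not analysed here.

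Naaa, a lysosomal acid amidase, had the lowest adjusted p of the 9. It read 57.1, 57.5 and 47.7 CPM in right IFN-alpha-pMC libraries, against 21, 22.4 and 25.4 CPM in right pMC and 18.7, 23.3 and 26.9 CPM in right control libraries. No right library without IFN-alpha-pMC reached 27 CPM. Naaa rose by 1.24 ± 0.18 on the log2 scale against right pMC (edgeR adjusted p = 0.000221) and by 1.24 ± 0.18 against right control (edgeR adjusted p = 0.000197). In left libraries it read 24.9, 39.1 and 39.1 CPM with IFN-alpha-pMC, against 21.2, 26.9 and 26.6 CPM with pMC and 24, 25 and 23.8 CPM in controls. Left IFN-alpha-pMC 1 lay within the other left groups and the remaining pair above them, with fold changes of 0.47 ± 0.18 against left pMC (edgeR adjusted p = 0.107) and 0.51 ± 0.18 against left control (edgeR adjusted p = 0.0751). Without left IFN-alpha-pMC 1 both passed, at edgeR adjusted p = 0.0405 and 0.0321.

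Wdfy4, Itgae and Cadm1 passed no test in any comparison of IFN-alpha-pMC with pMC or control. Wdfy4 read 5.68, 6.94 and 17.3 CPM in right IFN-alpha-pMC libraries, against 4.65, 6.33 and 7.28 CPM in right pMC and 5.85, 9.03 and 5.0 CPM in right control libraries. The high mean of 9.96 ± 6.35 CPM in right IFN-alpha-pMC came from replicate 3 alone, which is among the libraries that stood apart, and the log2 fold change was 0.59 ± 0.33 against right control (edgeR adjusted p = 0.306). In left libraries Wdfy4 averaged 6.91 ± 0.283 CPM with IFN-alpha-pMC, 6.73 ± 0.749 CPM with pMC and 6.07 ± 0.973 CPM in controls.

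Itgae, the CD103 integrin chain, averaged 1.06 ± 0.145 CPM in right IFN-alpha-pMC, 0.977 ± 0.105 CPM in right pMC and 1.41 ± 0.64 CPM in right control libraries. In left libraries it averaged 1.5 ± 0.417 CPM with IFN-alpha-pMC, 1.48 ± 0.143 CPM with pMC and 1.0 ± 0.196 CPM in controls. Its fold change against control was -0.40 ± 0.33 on the right (edgeR adjusted p = 0.53) and 0.56 ± 0.34 on the left (edgeR adjusted p = 0.221). Itgae overlaps Haspin, a kinase gene on the opposite strand, in GENCODE M21. Haspin stood at 10.0 to 16.9 CPM across libraries, above Itgae, and the strand setting of the counter is not known here, so the pair's reads may have been mixed. Clec9a and Wdfy4 also overlap other genes, Clec1b and Lrrc18, but those did not exceed 0.201 and 0.0930 CPM in any library.

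Cadm1, an adhesion molecule of the immunoglobulin family, read 381, 462 and 492 CPM in right IFN-alpha-pMC libraries, against 455, 420 and 379 CPM in right pMC and 335, 529 and 324 CPM in right control libraries. In left libraries it averaged 420 ± 108 CPM with IFN-alpha-pMC, 445 ± 17 CPM with pMC and 435 ± 29.1 CPM in controls. All groups overlapped, and the 4 IFN-alpha-pMC fold changes lay between -0.08 ± 0.21 and 0.17 ± 0.21 on the log2 scale. Its level per kilobase was 40.9 CPM, against 0.767 CPM for Xcr1, both as 18-library means.

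Xcl1, the ligand, was variable within groups. It read 8.79, 11.4 and 4.46 CPM in right IFN-alpha-pMC libraries, against 3.26, 4.8 and 7.87 CPM in right pMC and 3.11, 1.88 and 9.25 CPM in right control libraries. In left libraries it read 14.6, 7.32 and 3.86 CPM with IFN-alpha-pMC, against 3.44, 4.58 and 3.66 CPM with pMC and 2.6, 3.83 and 4.29 CPM in controls. Groups overlapped in all 4 IFN-alpha-pMC comparisons, and the highest values outside right IFN-alpha-pMC were in left IFN-alpha-pMC 1 and right control 3. Xcl1 has the shortest exons of the 9 members, 0.523 kb, and those 2 libraries had the most negative trend of expression with exon length.

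The log2 fold changes of Xcl1 were 0.62 ± 0.53 against right pMC (edgeR adjusted p = 0.592), 0.80 ± 0.54 against right control (0.405), 1.14 ± 0.54 against left pMC (0.171) and 1.26 ± 0.55 against left control (0.117). With counts corrected for transcript length, a setting chosen after the data had been seen, they became 0.74 ± 0.31 (edgeR adjusted p = 0.157), 0.91 ± 0.32 (0.0728), 0.74 ± 0.32 (0.125) and 0.66 ± 0.32 (0.151). The standard errors were smaller under the correction, and no comparison was called. Single libraries moved these values. Against right control the fold change was 1.71 without right control 3, where Xcl1 passed (edgeR adjusted p = 0.0241), and 0.36 without right control 2 (0.757). Without left IFN-alpha-pMC 1 it was 0.51 against left pMC (edgeR adjusted p = 0.606) and 0.63 against left control (0.503).

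On the right, markers of the cells known to secrete XCL1 had larger median fold changes than the 0.80 of Xcl1 against control, though the gap between them was not tested. On the left the NK cell median was 1.86 and the CD8 T cell median 1.31, against 1.26 ± 0.55 for Xcl1. Of all genes tested, 8.78% were called higher against control on the right and 4.05% on the left. The 10 NK cell markers summed to 223 to 373 CPM in right IFN-alpha-pMC libraries, against 10.3 to 27.3 CPM in right control libraries, and 10 of 10 were higher (median log2 fold change 2.96, against -0.03 over all genes tested). In left libraries the sum was 37.2 to 76.2 CPM with IFN-alpha-pMC, against 16.4 to 21.2 CPM in controls, and 6 of 10 were higher, against a median of 0.07 over all genes. The activating NK receptor gene Ncr1 rose by 2.61 ± 0.39 on the right (edgeR adjusted p = 0.0002) and by 1.87 ± 0.43 on the left (0.0255), and Cd8b1, a CD8 chain, by 3.28 ± 0.34 on the right and 1.31 ± 0.34 on the left (0.0384). Chemokines and cytokines that the same cells secrete with XCL1 rose in 5 of 5 tested genes on each side: Ccl3, Ccl4, Ccl5, Ifng and Tnf. Ccl4 reached 27.2 CPM on average in right IFN-alpha-pMC, against 2.94 CPM in right control (3.21 ± 0.30), and Ifng, the interferon-gamma gene, rose by 3.35 ± 0.40 on the right and 2.26 ± 0.42 on the left (edgeR adjusted p = 0.0096). Csf2, the sixth gene of that list, held 17 counts in all 18 libraries and was not tested.

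**Figure D2:**
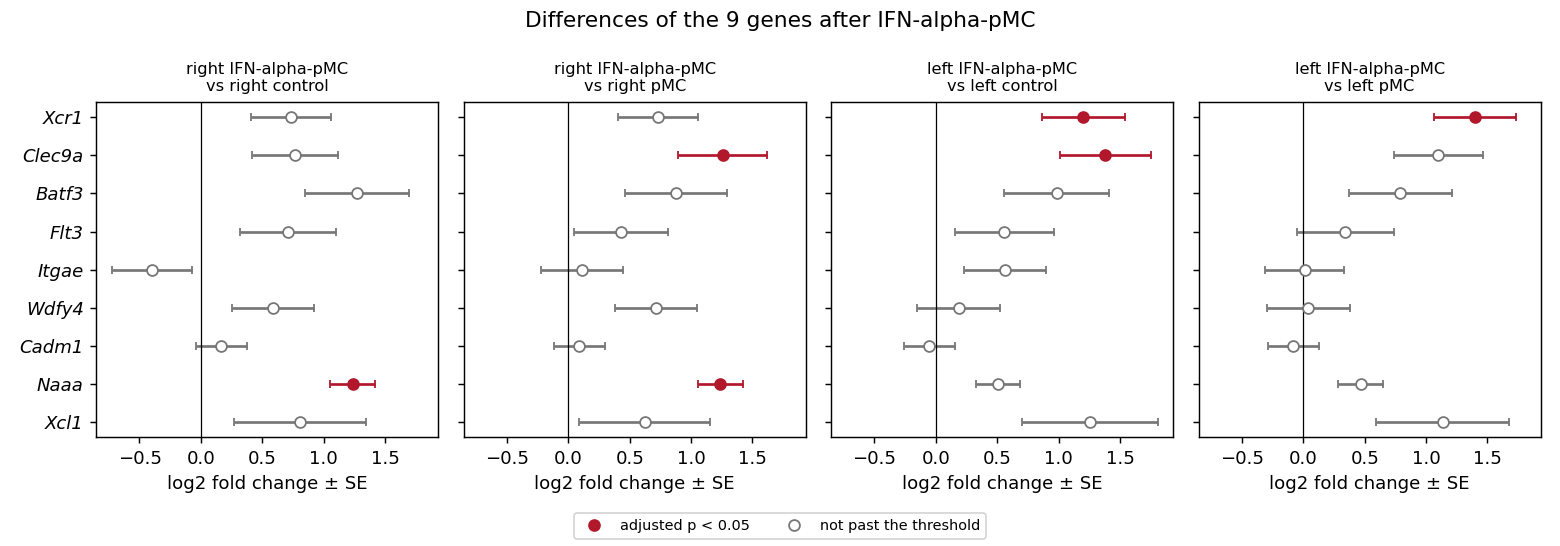
Log2 fold change of each of the 9 genes in 4 panels, IFN-alpha-pMC against control and against pMC on each side, with SE from edgeR (3 libraries per group) and filled where adjusted p was under 0.05. Naaa is called in both right IFN-alpha-pMC comparisons, Clec9a against right pMC and left control, and Xcr1 against left pMC and left control, while Cadm1 lies near 0 in every panel.

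Counted over the 9 members, 1 was called higher in right IFN-alpha-pMC against right control, where 8.78% of the 14849 genes tested were called higher. Against right pMC it was 2 of 9 with a background of 8.88%, against left control 2 of 9 with a background of 4.05%, and against left pMC 1 of 9 with a background of 2.71%. The call rate against right control is near the background, and in the other 3 comparisons 1 or 2 genes set the difference from it. DESeq2 called 2 members against right control, 2 against right pMC, 3 against left control and 2 against left pMC, all higher, where it called 9.76%, 10.3%, 9.77% and 8.44% of all genes higher. In the same order 4, 4, 5 and 3 members had an unadjusted edgeR p under 0.05, as did 24.2%, 20.3%, 36.1% and 30.0% of all genes. Without right control 3, edgeR called 5 of the 9 against right control, where the background in either direction was 26.1%. Without all 3 libraries that stood apart it called 5 of 9 there, where the background was 54.4%, and 3 of 9 against left pMC, where it was 27.6%. With the length correction 2 of 9 were called against right control, where it was 12.9%.

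No member was called in pMC against control on either side. For right pMC against right control, edgeR called 0 of 9 members, with log2 fold changes between -0.51 and 0.40, and for left pMC against left control 0 of 9, between -0.20 and 0.55. The background was 0% in both, and DESeq2 called 0 members, with 0.0135% of all genes called on the right and 0.00673% on the left. No member had an unadjusted edgeR p under 0.05, against 2.42% of all genes on the right and 0.801% on the left. The median member fold change was 0.00 on the right, against -0.03 over all genes tested. On the left the member median was 0.14, and the median over all genes is not given here. Without the 3 libraries that stood apart, edgeR called Xcl1 in right pMC against right control (1.09, adjusted p = 0.0358), with 33.7% of all genes called. The comparisons within a side share libraries, so their values are not independent.

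Right and left tumours were then compared within a treatment, right minus left. With IFN-alpha-pMC, Naaa averaged 54.1 ± 5.55 CPM on the right and 34.4 ± 8.23 CPM on the left, without overlap (0.65 ± 0.18, edgeR adjusted p = 0.0732), and edgeR called 0 of 9 members, against 2.53% of all genes in either direction. Of the members, 1 had an unadjusted edgeR p under 0.05, as did 11.6% of all genes, and DESeq2 called 1, Naaa (adjusted p = 0.0149), where it called 3.95% of all genes. Xcr1 averaged 5.07 ± 1.0 CPM on the right and 5.1 ± 0.886 CPM on the left, and Clec9a 3.36 ± 0.212 CPM and 3.23 ± 0.446 CPM, each overlapping. By contrast Irf8, the transcription factor that specifies cDC1 but is also made by monocytes, B cells and plasmacytoid dendritic cells, stood higher on the right (0.93 ± 0.20, edgeR adjusted p = 0.0201), as did the pan-leukocyte gene Ptprc (1.16 ± 0.30, 0.0471). Right pMC libraries lay above left pMC in Xcr1 (3.07 ± 0.603 CPM against 1.93 ± 0.251 CPM) and below it in Itgae, without overlap. Without the share of all genes that part in this way, these separations are description only. For pMC and for control, right against left called 0 of 9 members in edgeR and in DESeq2, where each called 0% of all genes. In both, 0 members had an unadjusted edgeR p under 0.05, against 2.09% of all genes for pMC and 0.781% for control.

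Whether the IFN-alpha-pMC effect differed between sides was tested as the right minus the left effect. No member was called: Naaa gave 0.73 ± 0.26 against control (edgeR adjusted p = 0.499) and 0.77 ± 0.26 against pMC (0.261), and Itgae gave -0.96 ± 0.47 against control (0.743). The background was 0% against control and 0.391% against pMC, and DESeq2 called 0 members, with 0.586% and 1.9% of all genes called. In each, 1 member had an unadjusted edgeR p under 0.05, as did 6.18% of all genes against control and 11.8% against pMC. The call of Xcr1 against left control, and not against right control, does not test a difference between sides.

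The members were also set against the leukocyte content of the tumours, as ratios within a library. Ptprc, which encodes CD45, rose to 152 ± 16.3 CPM in right IFN-alpha-pMC, against 33.8 ± 12.3 CPM in right control (2.17 ± 0.31, edgeR adjusted p = 0.0001), so any gene that rose less has a lower ratio to it. The log2 ratio of Xcr1 to Ptprc differed by -1.42 between right IFN-alpha-pMC and right control, and that of Clec9a by -1.39, without overlap of libraries. For Naaa, the member that rose by the most standard errors, it differed by -0.996. Each had an exact permutation p of 0.1, the smallest that 3 against 3 libraries allow, and so could not reach 0.05. In left tumours Ptprc read 67.8 ± 6.04 CPM with IFN-alpha-pMC and 29 ± 7.59 CPM in controls (1.22 ± 0.30, edgeR adjusted p = 0.0327). There Naaa over Ptprc differed by -0.78 (exact permutation p = 0.1), Xcr1 over Ptprc by -0.03 (exact permutation p = 0.8) and Clec9a over Ptprc by 0.19 (exact permutation p = 0.5), the last 2 with overlapping libraries. Whether these ratios differ between the sides was not tested. They were not corrected for the trend with exon length, and Ptprc exons span 18.313 kb.

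Xcl1 over Xcr1, the ligand's counts per count of its receptor, overlapped in all 6 comparisons within a side. The ratio was 1.5, 2.88 and 0.825 in right IFN-alpha-pMC libraries, against 1.37, 1.37 and 2.37 in right pMC and 2, 0.597 and 2.03 in right control libraries. In left libraries it was 3.54, 1.38 and 0.657 with IFN-alpha-pMC, against 1.95, 2.52 and 1.65 with pMC and 1.77, 1.58 and 1.54 in controls. IFN-alpha-pMC differed from control by 0.19 on the right (log2, exact permutation p = 0.7) and by -0.14 on the left (exact permutation p = 0.7). A change in the balance of ligand and receptor was thus not detectable with 3 libraries a group. The ratio was also not corrected for the trend with exon length, and exons span 0.523 kb in Xcl1 and 4.453 kb in Xcr1. It was highest in left IFN-alpha-pMC 1 (3.54, trend -0.42) and lowest in right control 2 (0.597, trend 0.50). The part of the trend in this ratio was not tested.

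**Figure D3:**
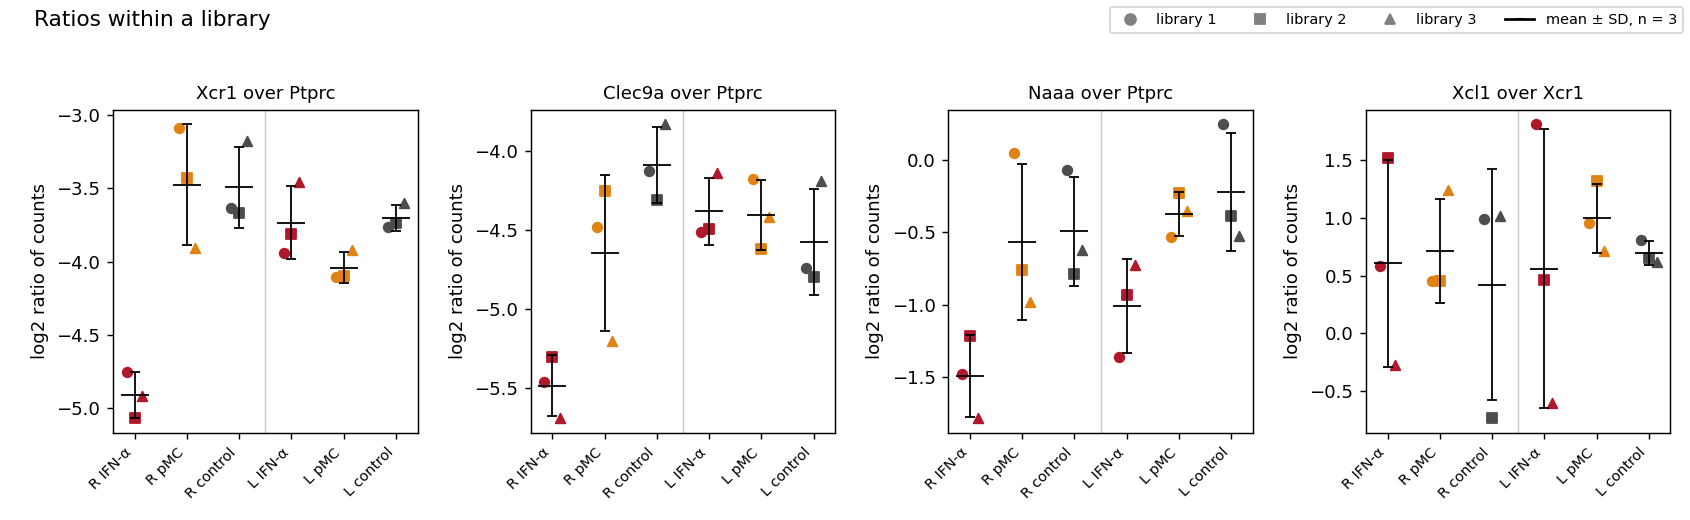
Log2 ratios of counts within each library, for Xcr1, Clec9a and Naaa over Ptprc and for Xcl1 over Xcr1, by group (R right, L left). Points are libraries, with the mean and SD over 3 libraries. Xcr1 and Clec9a over Ptprc lie lowest in right IFN-alpha-pMC, while in left tumours their groups overlap between IFN-alpha-pMC and control. The ratios are not corrected for the trend with exon length.

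Other genes of the dendritic cell subsets were read beside the members. For these lists and those below, 8.78% of all genes tested were called higher against control on the right and 4.05% on the left. Of 18 further cDC1 genes, 17 were tested, and 8 were higher in right IFN-alpha-pMC than in right control (median log2 fold change 0.92, against 0.73 for the 9 members and -0.03 for all genes tested): Irf8, Id2, Bcl6, Cd24a, Rab7b, Cd8a, Ifi205 and Nfil3. Irf8 averaged 65.7 ± 2.11 CPM with IFN-alpha-pMC and 18.4 ± 6.25 CPM in right controls (1.84 ± 0.21). Zbtb46, a transcription factor of the conventional dendritic cell lineage, gave -0.35 ± 0.18 (edgeR adjusted p = 0.24), and Tlr3, an RNA sensor of cDC1, gave 0.15 ± 0.21 (0.756). Many of the 8 are also made by other cells: Cd8a is in the CD8 T cell list too, and Ifi205 belongs to an interferon-inducible family. In left tumours 4 of 17 were higher against control (median 0.53): Irf8 (1.11 ± 0.21, edgeR adjusted p = 0.0103), Cd8a (1.42 ± 0.38, 0.042), and, picked out after their values were seen, Cd24a (1.88 ± 0.25, 0.0017) and Ifi205 (2.18 ± 0.32, 0.0034).

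Of 7 cDC2 genes tested, 3 were higher in right IFN-alpha-pMC than in right control (median 1.54), Irf4, Ltb and Cd7, and 0 of 7 in left (median 0.25). Which cells made Irf4, Ltb and Cd7 cannot be told from bulk RNA. The genes Clec10a and Cd209a, lectins of that subset, were not called on the right (0.67 ± 0.43, edgeR adjusted p = 0.388, and 0.70 ± 0.71, 0.623). Of 11 mature dendritic cell genes, 5 were higher on the right (median 1.07): Cd40, Cd86, Traf1, Ccr7 and Cd80. Ccr7, the receptor that carries dendritic cells to lymph nodes, rose by 1.38 ± 0.37 on the right (edgeR adjusted p = 0.0207) and stood at 1.16 ± 0.37 on the left (0.0613). On the left 3 of 11 were higher (median 0.96), with Il12b, the interleukin-12 subunit that cDC1 secrete, at 2.29 ± 0.54 (edgeR adjusted p = 0.0291), Cd40 at 1.83 ± 0.47 (0.0378) and Cd86 at 1.62 ± 0.45 (0.0449). Fscn1 gave -0.41 ± 0.27 on the right (0.39) and -0.74 ± 0.27 on the left (0.0769).

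Cross-presentation genes, which bring proteins taken up by the cell to MHC class I, were higher in 5 of 10 on the right (median 0.74): Cybb, Tap1, Tap2, Ctss and B2m. Sec22b, Rab43, Lnpep, Erap1 and Stx4a, the rest of that list, were not called higher there. In bulk tumour RNA the cells that made these transcripts cannot be told apart. On the left 1 of 10 was higher, Ctss, a lysosomal protease (1.05 ± 0.24, edgeR adjusted p = 0.024). All 4 chemokines for CXCR3 and CXCR6 were higher on each side (median 1.73 right, 1.60 left): Cxcl9 averaged 272 CPM in right IFN-alpha-pMC and 102 CPM in right control libraries (1.42 ± 0.23), and 1.73 ± 0.24 was the left log2 fold change (edgeR adjusted p = 0.0019). Plasmacytoid genes were higher in 3 of 8 on the right (median 1.01), and Siglech gave 0.94 ± 0.48 (edgeR adjusted p = 0.245). The 8 genes summed to 449 to 599 CPM in right IFN-alpha-pMC libraries, against 319 to 380 CPM in right control libraries. In left libraries the sum was 460 to 583 CPM, against 308 to 350 CPM in controls. Bst2 held the most counts of the 8, 106603 over the 18 libraries, against 354 for Siglech, so these sums follow Bst2 most.

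Markers of other myeloid cells moved with these lists, and their part in the values of Naaa, Irf8 and the dendritic cell genes was not tested. The 10 monocyte and macrophage markers summed to 1322 to 1535 CPM in right IFN-alpha-pMC libraries, against 619 to 1327 CPM in right control libraries, and 7 of 10 were higher (median log2 fold change 1.5). In left libraries the sum was 999 to 1617 CPM with IFN-alpha-pMC, against 652 to 785 CPM in controls, and 4 of 10 were higher (median 0.74). Neutrophil markers summed to 11.9 to 29.4 CPM in right IFN-alpha-pMC libraries, against 5.21 to 6.75 CPM in right control libraries, and 1 of the 3 tested was higher. In left libraries they summed to 6.58 to 7.66 CPM with IFN-alpha-pMC, against 4.40 to 5.44 CPM in controls, and 0 of 3 was called in edgeR. Mast cell markers summed to 6.70 to 8.62 CPM in right IFN-alpha-pMC libraries, against 2.79 to 3.94 CPM in right control libraries (2 of 3 tested higher), and to 4.29 to 5.85 CPM in left IFN-alpha-pMC libraries, against 3.49 to 4.18 CPM in left control libraries (1 of 3 higher). The neutrophil genes S100a9, Cxcr2 and Retnlg and the mast cell genes Fcer1a and Mcpt4 had 0 counts in at least 1 library.

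**Figure D4:**
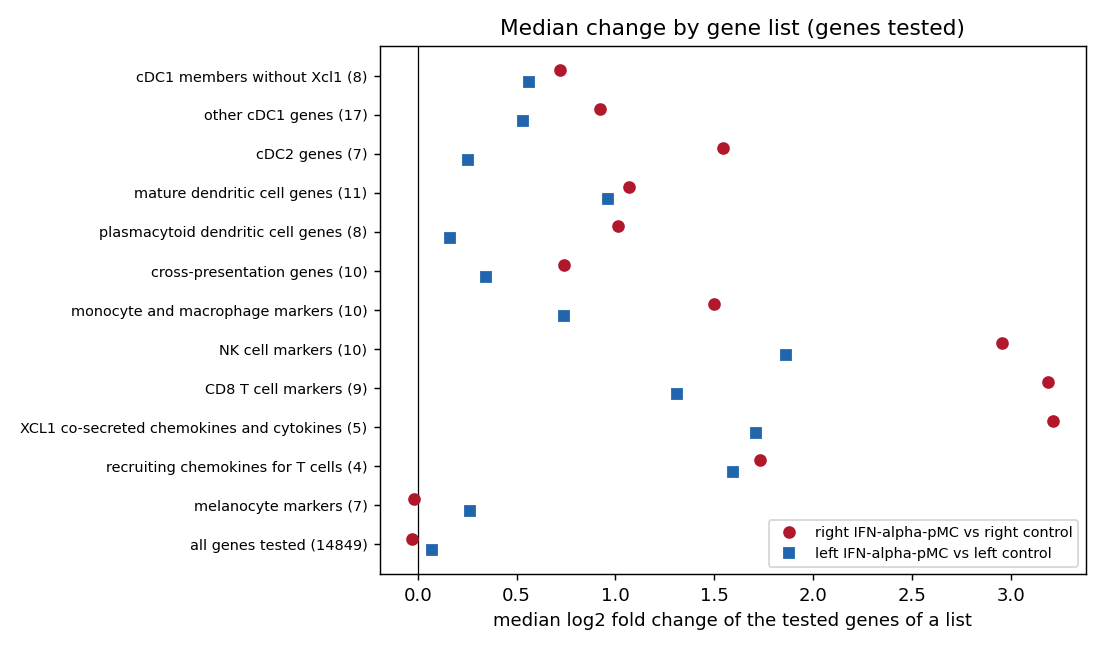
Median log2 fold change of the members and of other gene lists in right and left IFN-alpha-pMC against their controls, from edgeR, with the median of all genes tested. Circles are right and squares are left tumours, with the number of genes tested in brackets. The 8 cDC1 members without Xcl1 (0.72 right, 0.56 left) lie below the NK cell markers (2.96 right, 1.86 left) and CD8 T cell markers (3.19 right, 1.31 left).

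The genes whose centred log2 CPM profile lay nearest to each of 3 members over the 18 libraries were found by the root mean square (RMS) difference among all genes tested. Xcr1 lay nearest to Stk17b (0.287), Tlr1 (0.291) and Gcnt1 (0.298), and Clec9a was the fifth nearest (0.303), where the RMS of Xcr1's own profile about its mean was 0.624. Clec9a lay nearest to Xcr1 (0.303), then Inpp1 (0.314) and Stk17b (0.317). Xcl1 lay nearest to Nnmt (0.240), Ptpn18 (0.246) and Plscr2 (0.264). Among the neighbours of Xcl1, Batf3 ranked 787 and Xcr1 3765. Naaa ranked 254 for Xcr1 and 183 for Clec9a. The remaining members lay further from Xcr1: Flt3 ranked 806, Batf3 4030, Wdfy4 4382, Xcl1 5214, Cadm1 5505 and Itgae 7506. Xcl1 (0.644), Cadm1 (0.652) and Itgae (0.715) differed from Xcr1 by more than the RMS of Xcr1's own profile. By this measure the ligand thus lay far from Xcr1, as some of the cDC1 members did. The profiles were not corrected for the trend with exon length. These are descriptions over 18 libraries of 6 groups, so shared group differences enter them, and they carry no test.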

How the data were processed

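Bulk mRNA of 18 mouse tumour libraries in 6 groups of 3 was analysed, grouped by the sample titles. The authors deposited 1 table of raw read-pair counts per library, not normalized. Per the submitters' processing notes, HISAT2 2.1.0, HTSeq 0.10.0 and build mm9 were named. The same notes list Trimmomatic 0.36, DESeq2 1.20.0, FastQC, bcl2fastq and CASAVA 1.8.2. Neither the annotation release nor the strand setting was given in the sources used here. HTSeq's summary rows, 29.3 to 39.8% of read pairs, entered neither library sizes nor tests. Read pairs aligned to several places are not in the counts. Assigned counts were 60.2 to 70.7% of pairs. The CPM values given for 3 counts cover counting error only, whereas the SE and SD values include the spread between libraries.

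Symbols were matched by Ensembl ID for 32897 of 37620 IDs (GENCODE M21, build GRCm38), and 166 of 167 genes on the lists were found. No gene coordinates are given, because that build differs from mm9; promoters are from RefSeq on GRCm38.p6.

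Counts were tested with edgeR 4.0.16 in R 4.3.3 (quasi-likelihood F test, two-sided, TMM scaling, filterByExpr, 14849 genes, 1 model with 6 group means, 12 residual degrees of freedom). Adjustment was by Benjamini-Hochberg across all of these genes, with a threshold of 0.05. The SE is the log2 fold change divided by the square root of F. The script was tested on simulated data. Ratios used counts plus 0.5 and exact two-sided permutation tests (scipy 1.17.1). Alternatives were DESeq2 1.42.0 as size factors and as a Wald test, no filter, only the groups compared, a replicate block, a block by treatment and number for right against left, a muscle score covariate, leaving out libraries, and, added after seeing the data, a transcript length correction. The 3 libraries that stood apart were likewise picked from these same data.

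All 9 members were named in every comparison, with a set list of other genes and the 3 nearest profiles of Xcr1, Clec9a and Xcl1. Members and lists were chosen with earlier results of these data known.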

Additional observations from a re-analysis of the deposited data

How the results depend on the processing

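Of the values recomputed under other settings, 1482 kept their direction and their side of the threshold or their size, 25 newly passed, 26 no longer passed and 168 moved. None of the calls reversed direction. Members called in right IFN-alpha-pMC against right control (1 of 9) became 5 without the 3 libraries that stand apart (54.4% of all genes called), 2 with the DESeq2 Wald test (14.3%) and 2 with the transcript length correction (12.9%). Right IFN-alpha-pMC against right pMC (2) became 1 with the muscle score as a covariate (4.65%), and right pMC against right control (0) became 1, Xcl1 (1.09, edgeR adjusted p = 0.0358), without the 3 libraries (33.7%). Left IFN-alpha-pMC against left control (2) became 0 with the muscle score (0.647%). Left IFN-alpha-pMC against left pMC (1) became 0 with the muscle score (0.37%), 3 without the 3 libraries (27.6%), 2 with only the groups compared (17.98%) and 2 with DESeq2 (13.9%). Right against left IFN-alpha-pMC (0) became 1, Naaa, without the 3 libraries (5.75%), with DESeq2 (3.95%) and with the length correction (3.37%), and the side difference against control (0) became 1, Naaa, without the 3 libraries (5.07%). The cause of these changes was not tested, and in the muscle score the IFN-alpha-pMC libraries did not overlap the others of their side. Leaving out 1 library gave 1 to 5 called members for right IFN-alpha-pMC against right control (7.25 to 26.1% of all genes), 1 to 2 against right pMC (6.79 to 12.6%), 0 to 1 for left IFN-alpha-pMC against left control (0.569 to 3.26%), 0 to 2 against left pMC (0.219 to 2.74%) and 0 to 0 elsewhere. It moved the Xcl1 over Xcr1 difference between -0.39 and 0.63, -0.56 and 0.34, -0.29 and 0.59 on the right (IFN-alpha-pMC against control, against pMC, and pMC against control), and between -0.76 and 0.44, -1.07 and 0.14, 0.14 and 0.44 on the left. The labels do not say whether samples with the same number share a mouse, so samples were treated as unpaired. No comparison had all 3 correlations of same-numbered deviations over 0.1 (range -0.756 to 0.597), but each right against left comparison had 2 of 3 over it. So did right pMC against right control, whose tumours came from differently treated mice, so these correlations do not show which samples share a mouse. With a replicate block, right against left IFN-alpha-pMC gave 1 call, Naaa (0.68, edgeR adjusted p = 0.0455; 2.61% of all genes), against 0 without it, and the counts of called members in the other comparisons equalled those without the block. With a replicate block by treatment and number, the 3 right against left comparisons called 0 of 9 members, with Naaa at 0.67 in IFN-alpha-pMC (edgeR adjusted p = 0.0844; 3.09% of all genes). Depth limits Flt3, Itgae and Clec9a most, at 8, 13 and 13 counts in their lowest libraries.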

Other observations

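The binding partners of 2 members were also measured. Itgb7, the integrin chain that pairs with CD103 (Itgae), averaged 16.6 CPM in right IFN-alpha-pMC and 2.89 CPM in right control libraries (log2 fold change 2.52 ± 0.44, edgeR adjusted p = 0.0009), while Itgae itself was not called. In left tumours Itgb7 gave 0.87 ± 0.44 (edgeR adjusted p = 0.16). Cdh1, which encodes E-cadherin, the ligand of that integrin, gave 0.22 ± 0.21 on the right (0.609) and -0.54 ± 0.22 on the left (0.0982). Crtam, the T and NK cell receptor for CADM1, rose by 0.94 ± 0.25 on the right (edgeR adjusted p = 0.0207) and gave 0.36 ± 0.26 on the left (0.302), while Cadm1 was not called on either side.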
